A study of Mus musculus with 2 samples.

Results

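The imprinted Dlk1-Dio3 region holds a very large miRNA cluster of the mouse genome, and its miRNAs were measured in adult Müller glia (MG) after conditional deletion of Dicer1 and in wild-type MG. Members were taken by name as the unstarred mouse miRNA probes whose number belongs to the cluster. This gave 48 of the 566 mouse miRNA probes on a NanoString nCounter panel, none of them a joint probe. Dicer-CKO_MG MG came from Rlbp1-CreER:tdTomato:Dicerf/f mice (26 retinas) and wild-type MG from Rlbp1-CreER:tdTomato mice (40 retinas), each pooled into 1 library. Another label field gives 26 retinas for the wild-type pool as well. All mice were adult, carried the MG-specific CreER and the tdTomato reporter, and received tamoxifen at 75 mg/kg from postnatal day 11 to 14. In the floxed mice CreER also deletes Dicer1, which encodes the RNase that cuts miRNA hairpins, and the study describes that deletion as incomplete. Cells were sorted for tdTomato. With 1 library per group no difference has a replicate check, and no test across samples was possible.

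All members are processed from maternally expressed noncoding RNAs of the region (Meg3, the antisense transcript of Rtl1, Rian and Mirg), whereas Dlk1, Rtl1 and Dio3 are expressed from the paternal chromosome. The cluster is found in placental mammals and is best known from brain, placenta and embryo. In rat neurons, the miR-379 to miR-410 part is transcribed in response to activity and regulates dendrites, miR-134 being the best studied member. Dlk1-Dio3 miRNAs, like most miRNAs, are cut from hairpins by Dicer.

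The 40 miRNA genes behind the 48 probes lie on chromosome 12 (mouse build GRCm38.p6) between 109571990 and 109743795, a stretch of 171806 bases between Dlk1 and Dio3. 11 probes read miRNAs of 8 genes on the Rtl1 side (miR-673 to miR-136), 2 read miR-341 and miR-370, which lie within Rian, and 35 read miRNAs of 30 genes from miR-379 to miR-410. The panel names 32 of the 48 probes without an arm of the hairpin. For these the arm was taken from general knowledge of miRBase accessions, not from the files. Mature sequences of 45 members were found in the RefSeq table of GRCm38.p6 (not those of miR-376c, miR-485 and miR-487b). The members with a sequence that passed the detection limit in either library are shown in order along the locus. miR-376b, the member with a sequence most like miR-376a, is shown with them. The seed (bases 2 to 8, which pair with target mRNAs) is in capitals.
miR-433-3p: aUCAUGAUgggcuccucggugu
miR-127-3p: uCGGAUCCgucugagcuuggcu
miR-434-3p: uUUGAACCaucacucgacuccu
miR-136-5p: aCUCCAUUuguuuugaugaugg
miR-329-3p: aACACACCcagcuaaccuuuuu
miR-495-3p: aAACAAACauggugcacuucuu
miR-376b-3p: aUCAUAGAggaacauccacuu
miR-376a-3p: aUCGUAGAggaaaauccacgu
miR-539-5p: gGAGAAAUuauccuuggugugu
miR-382-5p: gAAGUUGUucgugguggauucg
miR-154-5p: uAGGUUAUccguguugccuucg
miR-369-3p: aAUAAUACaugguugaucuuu

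The cluster does not form a seed family. The 45 members with a sequence had 45 different seeds, and still 45 when only bases 2 to 7 were compared. For 36 of them, miR-376a, miR-539 and miR-136 included, no other of the 1679 mature mouse miRNAs in the table had the same seed. Among detected members, miR-329 shared its seed with miR-362-3p, and miR-495 with miR-1192 and miR-12200-5p. The closest pairs of members were miR-376a with miR-376b and miR-495 with miR-543, each with 18 identical bases. Between miR-376a-3p and miR-376b-3p the differences were G4A, A13C and G20U, counted from the 5′ end with the base of miR-376a first. The first of these lies in the seed, so that the seeds of this pair differ as well. Identity was counted without gaps, at shifts of up to 2 bases. Apart from miR-376b, the mature sequences of the table most like miR-376a-3p had 12 identical bases of 21. miR-376c, whose sequence was not found, could not be compared.

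The Dicer-CKO_MG library held 139812 barcodes over all probes and the wild-type library 769736. A raw count is the number of reporter barcodes counted for a probe. The 8 negative controls, which have no target, averaged 20.4 ± 16.4 raw counts in Dicer-CKO_MG and 38.6 ± 16.5 in wild-type (SD over controls), and the highest control had 59 in Dicer-CKO_MG against 62 in wild-type. A probe was called detected above their mean plus 2 SD, a raw count of 53.2 in Dicer-CKO_MG against 71.7 in wild-type, which 1 of the 8 negative controls itself passed in Dicer-CKO_MG against 0 in wild-type. Normalized counts are raw counts minus the negative-control mean, scaled to 6 positive controls and 4 housekeeping mRNAs. On this scale the limits are 90.0 in Dicer-CKO_MG against 23.6 in wild-type. The 4 miRNAs taken as MG markers (miR-204, miR-125b-5p, miR-9 and miR-181a) were detected in both libraries.

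Most members lay at background in both libraries. In Dicer-CKO_MG 3 of 48 members were detected (6.25%), against 13.6% of all mouse miRNA probes and 0% of 33 viral miRNA probes. In wild-type 11 of 48 were detected (22.9%), against 30.2% of all mouse miRNA probes and 6.06% of the viral probes, which have no target in these mice. The median raw count of the members was 17 in Dicer-CKO_MG against 50 in wild-type, next to medians of 18 in Dicer-CKO_MG against 48 in wild-type over all mouse probes, and of 18 in Dicer-CKO_MG against 42 in wild-type over the viral probes. The highest member reached 238 in Dicer-CKO_MG (miR-376a) and 246 in wild-type (miR-382), where the highest mouse probe, miR-204, had 6906 in Dicer-CKO_MG against 247414 in wild-type. The 36 members detected in neither library ranged between 1 and 39 raw counts in Dicer-CKO_MG and between 5 and 71 in wild-type. Just below the limit were miR-382 (48), miR-434-3p (43) and miR-376b (39) in Dicer-CKO_MG, and miR-376b (71), miR-485 (69) and miR-381 (65) in wild-type. These members were not detectable at this depth, which does not show that they are absent.

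**Figure D1:**
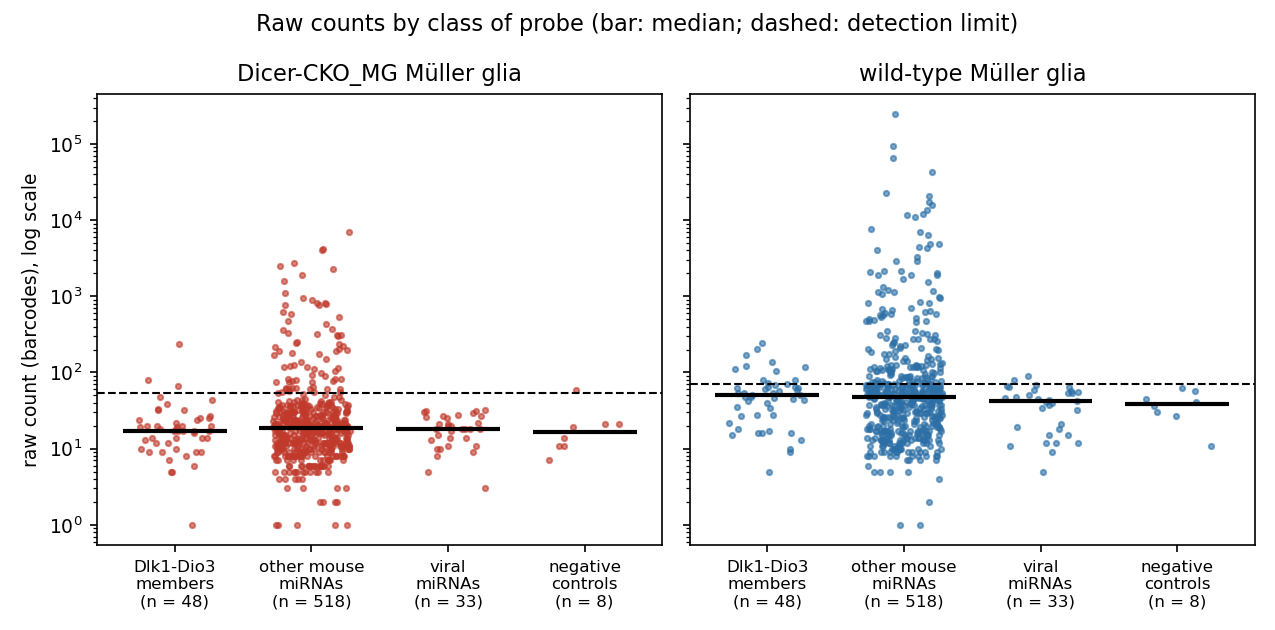
Raw counts (barcodes, log scale) of the 48 members, the 518 other mouse miRNA probes, 33 viral probes and 8 negative controls in Dicer-CKO_MG (left) and wild-type (right), 1 point per probe, with the median as a bar and the detection limit dashed. The medians of members and viral probes were 17 and 18 in Dicer-CKO_MG and 50 and 42 in wild-type, and members spread above the limit with 3 probes in Dicer-CKO_MG against 11 in wild-type.

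Among the miRNAs on the Rtl1 side, 1 of 11 probes was detected in Dicer-CKO_MG and 4 of 11 in wild-type. In mouse, miR-127, miR-136, miR-431, miR-433 and miR-434 lie antisense to Rtl1, a retrotransposon-derived gene needed in the placenta, and guide the cleavage of its mRNA. miR-136 had the highest count of this group with 80 in Dicer-CKO_MG against 203 in wild-type, above the limit in both libraries. Normalized, this was 163 in Dicer-CKO_MG against 118 in wild-type, 1.39-fold with a 95% counting interval of 0.965 to 1.94, so equality was not excluded. miR-434-3p had 43 raw counts in Dicer-CKO_MG against 172 in wild-type, miR-127 had 22 and 110, and miR-433 had 33 and 105 in the same order. All 3 were measured in wild-type and at background in Dicer-CKO_MG. For miR-434-3p the limit allows at most 0.943 times the wild-type level (interval 0.781 to 1.16, which includes equality). For miR-127 and miR-433, with normalized wild-type counts of 51.1 and 47.5, even a value at the Dicer-CKO_MG limit of 90.0 would have been higher than wild-type, so the direction could not be given. miR-431, miR-665, miR-337 and miR-673 stayed below the limit in both libraries, as did miR-341 (12 in Dicer-CKO_MG against 13 in wild-type) and miR-370 (20 and 54), the 2 members within Rian.

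From miR-379 to miR-410, 2 of 35 probes were detected in Dicer-CKO_MG and 7 of 35 in wild-type. miR-382 had 48 raw counts in Dicer-CKO_MG, just below the limit, and 246 in wild-type, the highest member count of that library. Its level in Dicer-CKO_MG was at most 0.607 times that in wild-type (interval 0.524 to 0.708), lower on this scale but short of the 2-fold size rule. The bound rose to 1.47 with detection above 100 raw counts. It was 2.53 scaled to the sum of detected mouse miRNAs and 1.14 scaled to the 100 highest. Under these 3 settings the direction of miR-382 could not be given. miR-154 had 25 raw counts in Dicer-CKO_MG against 138 in wild-type, miR-376c 20 and 121, and miR-495 17 and 119. These 3 members were clearly above the wild-type limit and near the mean of the negative controls in Dicer-CKO_MG. The other 2 were only just detected in wild-type, miR-329 (7 in Dicer-CKO_MG against 79 in wild-type) and miR-369-3p (32 and 72). For these 5 the direction could not be given on the normalized scale, because their wild-type counts lay below the Dicer-CKO_MG limit of 90.0. miR-134, which limits the size of dendritic spines in rat hippocampal neurons, was at background with 17 raw counts in Dicer-CKO_MG against 58 in wild-type. miR-379 and miR-410, which give this stretch its name, had 16 and 20 raw counts in Dicer-CKO_MG, and 15 and 48 in wild-type.

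**Figure D2:**
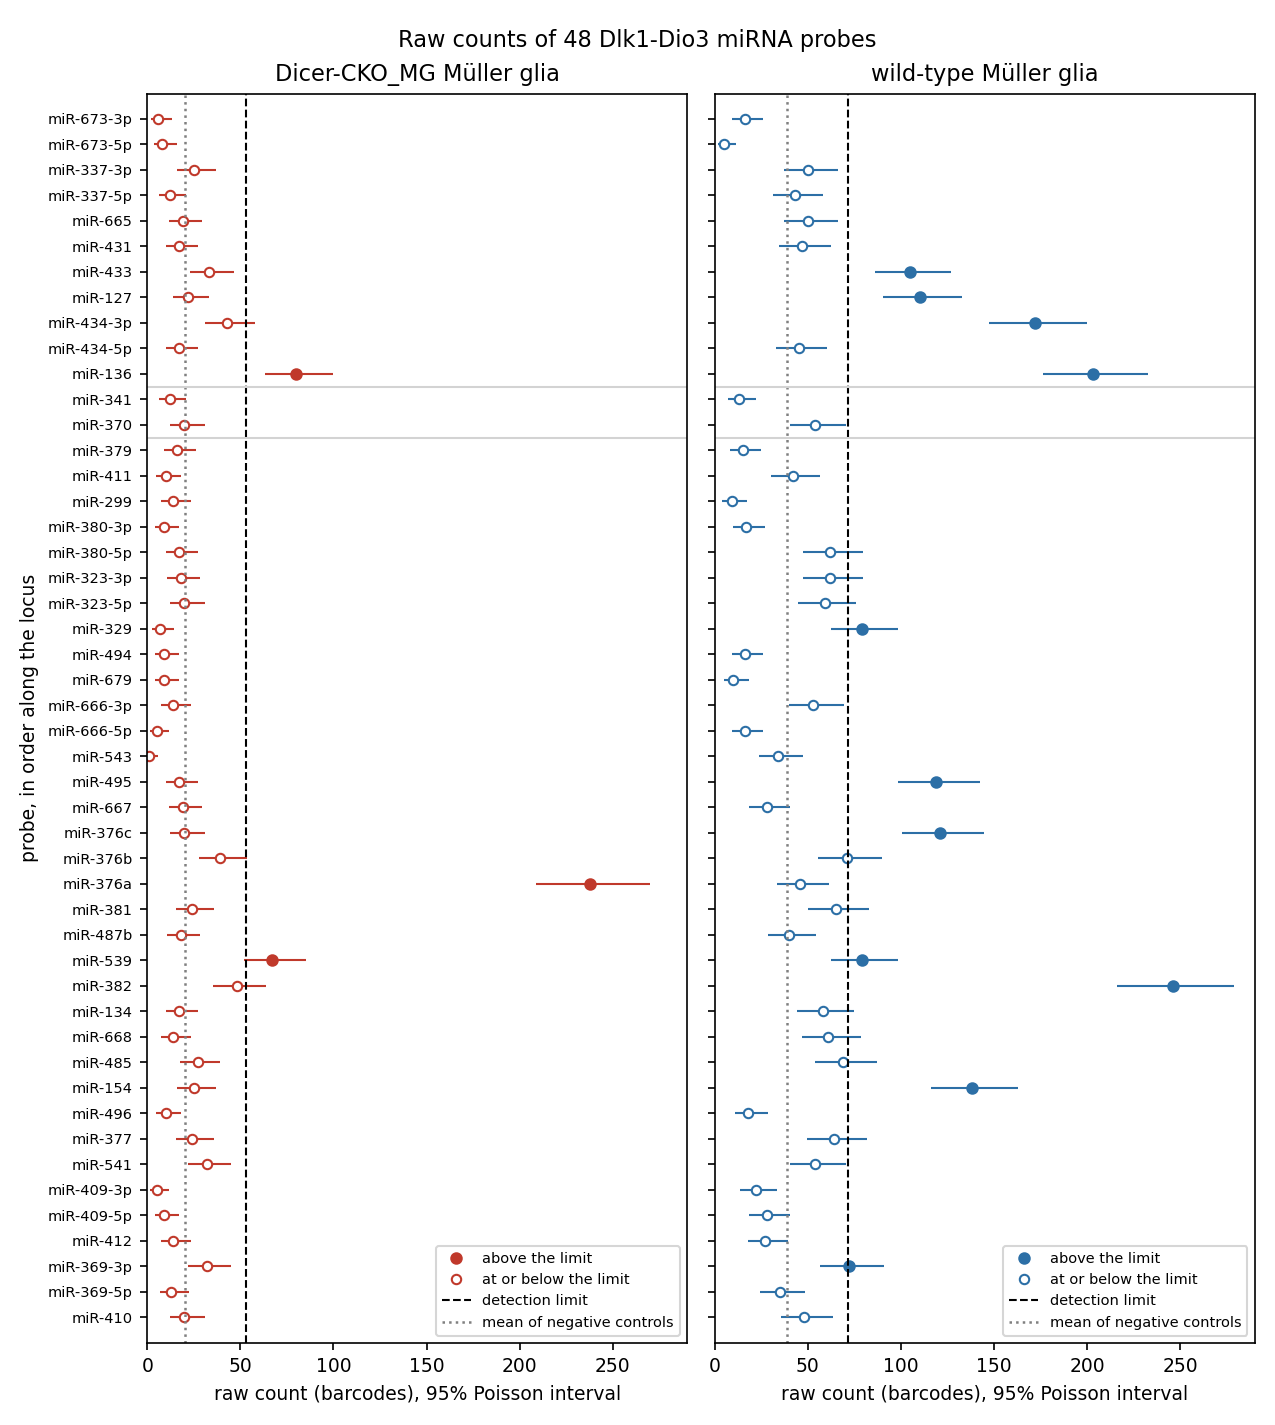
Raw counts (barcodes, with exact 95% Poisson intervals) of all 48 probes in order along the locus in Dicer-CKO_MG (left) and wild-type (right). Filled points lie above the detection limit (dashed), open points at or below it, the dotted line is the negative-control mean, and grey lines part the Rtl1 side, Rian and the stretch from miR-379 to miR-410. In wild-type 11 members are filled, the highest being miR-382 with 246, and in Dicer-CKO_MG miR-376a stands apart with 238.

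miR-376a, also in this stretch, was the only detected member with a higher raw count in Dicer-CKO_MG. It was counted 238 times in Dicer-CKO_MG (exact 95% Poisson interval 209 to 270) and 46 in wild-type (33.7 to 61.4). The wild-type count was below the limit of 71.7, so miR-376a was at background there, and it was the member with the highest count in Dicer-CKO_MG. Normalized, it had 596 in Dicer-CKO_MG and lay below the limit of 23.6 in wild-type, at least 25.2-fold higher (interval 21.8 to 28.9, counting error only). The raw counts alone differed 5.17-fold (exact binomial interval 3.76 to 7.26). By the ratio of raw counts miR-376a came first of the 174 mouse miRNAs detected in either library, and it also came first by normalized fold, before miR-96 with 12.1-fold. The deposited normalized counts gave 525 in Dicer-CKO_MG against 4 in wild-type. Over 15 alternative settings it was called higher in 15, at 3.32-fold (raw counts) to 277-fold (mean plus 2 SD of the negative controls subtracted). In the last setting the wild-type limit equals the subtracted background, and a floor of 3 raw counts stood in for it. The 277-fold depends on that floor.

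In raw counts, the genes next to Mir376a did not share this pattern. Mir376c, Mir376b and Mir376a lie within 1131 bases of chromosome 12 (mature miR-376a-3p at chr12:109723824-109723844, plus strand), with 241 bases between the genes Mir376b and Mir376a. miR-376b had 39 raw counts in Dicer-CKO_MG against 71 in wild-type, and miR-376c 20 and 121. miR-381, the next member on the other side, had 24 in Dicer-CKO_MG against 65 in wild-type. Only miR-376a of these 4 had more raw counts in Dicer-CKO_MG than in wild-type. Normalized, miR-376b had 51.0 in Dicer-CKO_MG against 23.2 in wild-type, and miR-381 9.93 and 18.9, below the limit in both libraries. The direction of miR-376c could not be given. On the normalized scale a change of these neighbours was thus not measured. The primary transcripts of the miR-376 group are known for adenosine-to-inosine editing in human and mouse brain, which these probes do not report.

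miR-539 was the other member called higher. It had 67 raw counts in Dicer-CKO_MG against 79 in wild-type, little above the limit in both libraries. Normalized, it had 128 in Dicer-CKO_MG against 28.9 in wild-type, 4.42-fold higher (interval 2.54 to 8.16). Its wild-type level lay below the Dicer-CKO_MG limit of 90.0. It could thus be measured in both only with a higher normalized count in Dicer-CKO_MG. Its raw count was lower in Dicer-CKO_MG, and scaled to the positive controls only the fold was 0.814, with an interval that included equality. By size it came 11th of the 21 mouse miRNAs called higher. In all, 2 of 48 members were thus called higher (at least 2-fold with an interval excluding equality), or 4.17%, against 3.71% of all mouse probes. 0 of 48 were called lower, against 9.19% of all mouse probes. No member could have been called lower on this scale. Even the highest wild-type level among members, 148 for miR-382, was too low for a 2-fold drop to stay above the Dicer-CKO_MG limit of 90.0. The share called lower is therefore no result about the members. 4 members (8.33%) had a higher raw count in Dicer-CKO_MG, against 8.48% of all mouse probes, and of these only miR-376a was detected. The others were miR-673-5p (8 in Dicer-CKO_MG against 5 in wild-type), miR-299 (14 and 9) and miR-379 (16 and 15).

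**Figure D3:**
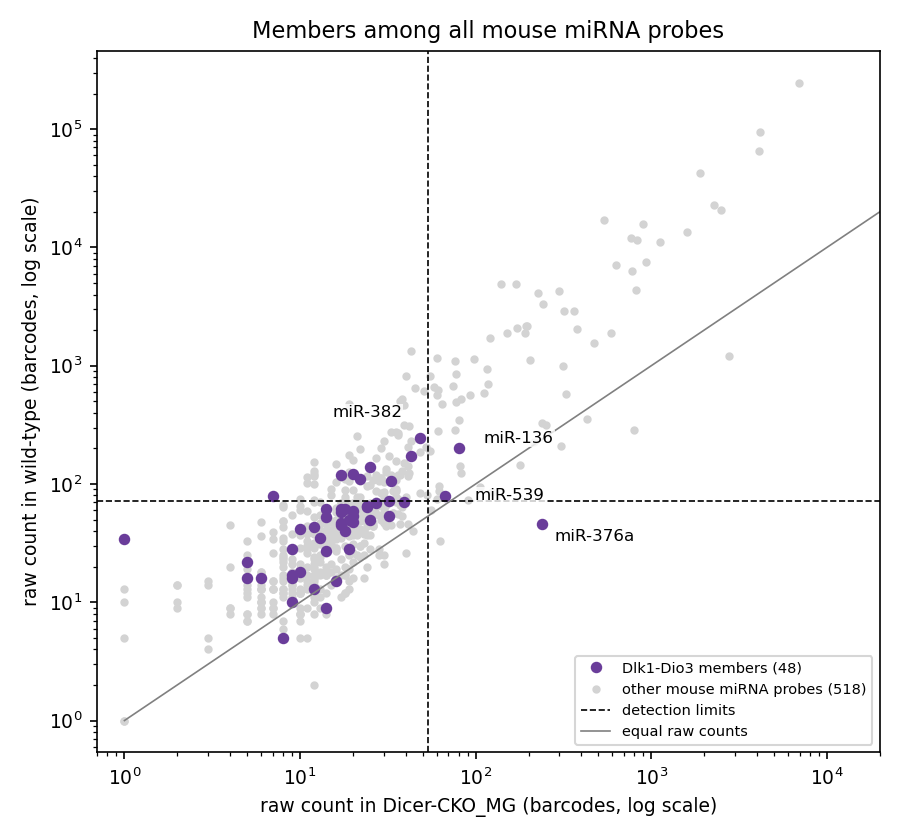
Raw count in Dicer-CKO_MG (x axis) and wild-type (y axis), both in barcodes on log scales, for the 48 members and the 518 other mouse miRNA probes, with the detection limits dashed and the line of equal raw counts. 44 members lie on the wild-type side of the line, and miR-376a (238 in Dicer-CKO_MG against 46 in wild-type) is the detected member on the other side.

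Of the markers of other retinal cells, those measured in both libraries were called higher in Dicer-CKO_MG (3 neuronal, 2 photoreceptor, 4 immune cell and 1 vessel miRNA). Of all 566 mouse probes 3.71% were called higher. Measured in both meant above 90.0 normalized counts in Dicer-CKO_MG but only above 23.6 in wild-type. A marker below 90.0 in wild-type could thus enter only with a higher level in Dicer-CKO_MG. The 10 calls also depended on the scale. With positive controls only, 1 of the 10 was called higher (miR-96) and 1 lower (miR-132), and with raw counts 2 were called higher (miR-124 and miR-96). Of 7 neuronal markers on the panel 3 were detected in Dicer-CKO_MG against 4 in wild-type. The summed normalized count of the detected ones was 8304 in Dicer-CKO_MG against 1137 in wild-type, most of it miR-124, while miR-128, miR-138 and miR-129-5p were at background in both. miR-137 was detected in wild-type only, with 21 raw counts in Dicer-CKO_MG against 78 in wild-type. Its wild-type level lay below the Dicer-CKO_MG limit, so its direction could not be given. The defining photoreceptor marker miR-182 was at background in both libraries, as were miR-223 of immune cells and miR-126-5p, miR-143 and miR-145 of vessels. For 3 photoreceptor markers the sums were 3250 in Dicer-CKO_MG against 401 in wild-type, for 5 immune cell markers 1325 and 297, and for 4 vessel markers 785 and 121. In the same order, the 4 MG markers had 46510 and 322020, and all 4 were called lower, as they also were with positive controls only and with raw counts. Scaled to the sum of detected mouse miRNAs, only 1 of the 4 was called lower (miR-204). The 10 markers of other cells were all called higher on that scale. The part of these markers in the counts of miR-376a and miR-539 was not tested. A pool of sorted cells cannot separate fewer cells of a type from less RNA per cell.

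Without miR-376a, the mean over the cluster lay at background in Dicer-CKO_MG and above it in wild-type. The other 47 members averaged 20.4 raw counts in Dicer-CKO_MG against 60.6 in wild-type, where the negative controls averaged 20.4 and 38.6. Above the negative controls this left -0.013 ± 5.85 counts per probe in Dicer-CKO_MG and 22.0 ± 5.95 in wild-type (SE from counting and from the spread of the controls). On the normalized scale the excess was -0.036 ± 16.0 in Dicer-CKO_MG against 15.8 ± 4.26 in wild-type, a difference of -15.8 with a 95% interval of -48.3 to 16.7. A change of the remaining cluster was therefore not detectable against 8 controls. With the 33 viral probes as background, an alternative chosen after the data had been seen, the excess was 4.31 ± 4.23 in Dicer-CKO_MG against 14.7 ± 2.94 in wild-type. The difference was then -10.4 (-20.5 to -0.318). With miR-376a included, the difference was -3.15 ± 16.6 against negative controls and 2.22 ± 5.21 against viral probes. Both 95% intervals included 0. The interval that excluded 0 thus depends on leaving out miR-376a, the member with the highest Dicer-CKO_MG count in these data. The summed level of detected members was 887 normalized counts in Dicer-CKO_MG against 730 in wild-type, a ratio of 1.22 (interval 1.05 to 1.40). Without miR-376a it was 291 in Dicer-CKO_MG against 730 in wild-type, a ratio of 0.399. Values below a limit entered these sums as 0. This was so for miR-376a in wild-type and for 9 members in Dicer-CKO_MG, 7 of them with wild-type levels below the Dicer-CKO_MG limit. The summed members were chosen by the same counts, and both ratios depend on the unequal limits. The interval of the first ratio covers counting error only and does not test a change of the cluster. With background-subtracted counts in place of 0, an alternative chosen after seeing the data, the ratios were 1.44 with miR-376a and 0.638 without it.

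For 8 hairpins the panel reads both arms, and the 3p arm had the higher wild-type count in 6 of them. Only Mir434 and Mir369 had a detected arm, the 3p arm in wild-type. For Mir434, 3p and 5p had 43 and 17 raw counts in Dicer-CKO_MG, and 172 and 45 in wild-type, and for Mir369 they had 32 and 13, and 72 and 35. The other 6 hairpins had both arms at background in both libraries. GC content was lower in the 11 members with a sequence that were detected in either library (median 42.9%, range 23.8 to 59.1%) than in the 34 that were not (median 51.2%, range 36.4 to 72.7%), and whether base composition bears on detection was not tested. Across the 48 members, raw counts of the libraries had a Spearman correlation of 0.73. Across the 33 viral probes it was 0.71. Both values are descriptions over probes that share 2 libraries.

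**Figure D4:**
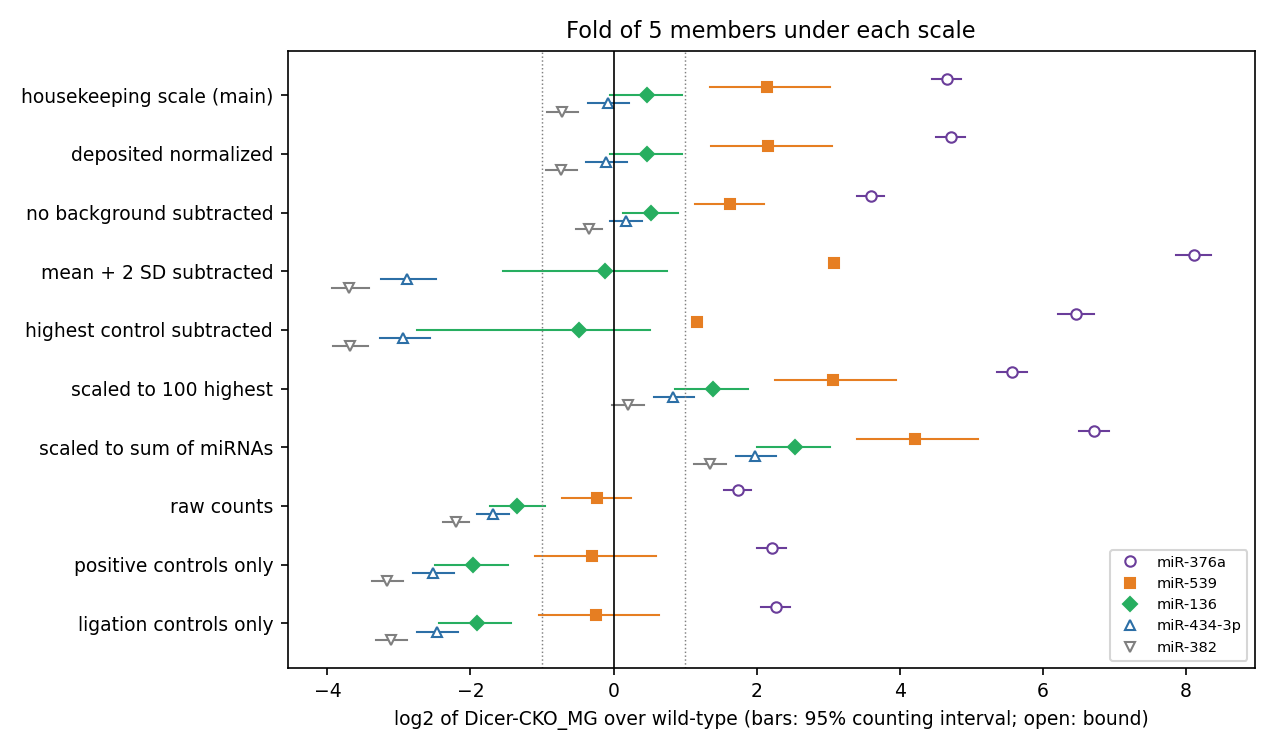
Log2 of Dicer-CKO_MG over wild-type for 5 members under 10 ways of scaling or subtracting background, with 95% counting intervals (none for miR-539 under the 2 stronger subtractions, where a bound fell below background). Open symbols are bounds (at least for miR-376a, at most for miR-434-3p and miR-382), dotted lines mark 2-fold, and miR-376a lies to the right of 2-fold throughout. Under the 2 stronger subtractions the bounds of miR-434-3p and miR-382 rest on a floor of 3 raw counts. That of miR-376a does so with mean plus 2 SD subtracted. miR-539 and miR-136 lie below 0 for raw counts and for positive or ligation controls only, and miR-136 also under the 2 stronger subtractions, there with intervals that include 0.

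Calls of members other than miR-376a depended on the scale. The housekeeping step shifts all log2 ratios by 2.44 relative to the positive controls. With positive controls only, 8 of 48 members were called lower, against 24.2% (137) of all 566 mouse probes (the members were miR-127, miR-136, miR-154, miR-376c, miR-382, miR-433, miR-434-3p and miR-495). miR-376a was the 1 member called higher on that scale, against 0.353% (2) of all mouse probes. Scaled to the sum of detected mouse miRNAs, 3 of 48 members were called higher (miR-376a, miR-539 and miR-136), against 6.54% (37) of all mouse probes, and 0 lower, against 0.883% (5). Over all mouse probes measured in both libraries the median log2 ratio was -1.12 on the housekeeping scale, -3.56 against positive controls and 0.95 after scaling to the sum.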

How the data were processed

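Sorted MG were measured on a NanoString nCounter mouse miRNA panel, 1 library per group. The deposited raw counts are barcodes per probe (626 probes, 566 for mouse miRNAs), not normalized. The authors also deposited normalized counts made with nSolver 2.6, a rounded score that was used only as an alternative. From the raw counts, the mean of 8 negative controls was subtracted, and values were scaled by the geometric means of 6 positive controls and 4 housekeeping mRNAs (Actb, Gapdh, Rpl19 and B2m). Detection required more than the negative-control mean plus 2 SD. Exact 95% Poisson intervals of raw counts were carried to the fold by the MOVER method and cover counting error only. A call needed 2-fold and an interval excluding equality. A probe detected in 1 library was set against the limit of the other as a bound. Where background subtraction left less than 3 raw counts of that limit, a floor of 3 raw counts was used instead. All mouse probes were processed together. Every member detected in either library was named, and for the rest the 3 highest undetected counts per library. The members, marker lists and rules were chosen with earlier results of these data known. The calculation was tested on simulated data, with calls scored only at wild-type counts higher than those of any member. The simulated counts had Poisson spread only. The test thus does not cover calls near background. Python 3.11.15, numpy 2.4.6, pandas 2.3.3 and scipy 1.17.1 were used. Alternatives for background, scaling, detection and size of call are given in the closing section. Gene positions and mature sequences came from RefSeq tables of GRCm38.p6.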

Additional observations from a re-analysis of the deposited data

Results flagged for a closer look

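A probe of the region outside the name rule gave a signal above the limit. miR-1906, whose gene lies within Meg3, had 41 raw counts in Dicer-CKO_MG, below the limit, and 141 in wild-type, above it. Of the viral probes, which have no target in these mice, 0 passed the limit in Dicer-CKO_MG and 2 of 33 in wild-type, the highest with 91 raw counts. miR-329, miR-369-3p and miR-539, at 79, 72 and 79 raw counts in wild-type, lay below that value.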

How the results depend on the processing

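miR-376a was called higher under all 15 alternatives run for it. The count of members called higher was 1 with mean plus 2 SD or the highest negative control subtracted, with raw counts, with positive or ligation controls only, and with detection above 100 raw counts. Of all 566 mouse probes 2.47, 2.3, 0.53, 0.353, 0.353 and 2.12% were called higher there, in the same order. The count called lower was 7 of 48 under the stronger subtractions (19.1 and 19.6% of all mouse probes) and with raw counts (20.8%), 8 with positive (24.2%) or ligation controls only (24%), and 1 (miR-382) at 1.5-fold (11.5%). Under the stronger subtractions the Dicer-CKO_MG limit did not exceed the subtracted background. The 7 calls there set wild-type against the floor of 3 raw counts and depend on that choice. Detected members in Dicer-CKO_MG were 1 with a limit of 100 raw counts and 6 with viral probes as background, an alternative chosen after seeing the data. In wild-type they were 8 to 15. The summed ratio was 0.970 without background subtraction, 1.55 with mean plus 2 SD subtracted, 0.267 with raw counts, 0.224 with positive and 0.232 with ligation controls only, 5.08 scaled to the miRNA sum, 2.30 scaled to the 100 highest, 0.920 with detection above 100 and 0.399 without miR-376a. With background-subtracted counts in place of 0 it was 1.44, and 0.638 without miR-376a. With raw counts, positive and ligation controls only, the fold was 0.394, 0.256 and 0.265 for miR-136, and 0.848, 0.814 and 0.844 for miR-539. The cause was not tested. miR-539 also lost its call with mean plus 2 SD (8.44-fold) and the highest negative control subtracted (2.25-fold), because its interval then included equality or had no bound. No paired analysis was possible because each group had 1 library. The detection limit was 53.2 raw and 90.0 normalized counts in Dicer-CKO_MG, against 71.7 raw and 23.6 normalized counts in wild-type, so its order depends on the scale.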

Other observations

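The panel also held 15 probes for miRNAs of the same region that the name rule left out. Apart from miR-1906, the 14 others were at background in both libraries. The highest of these were miR-1197 with 29 raw counts in Dicer-CKO_MG against 68 in wild-type, miR-300 with 17 in Dicer-CKO_MG against 60 in wild-type, and miR-882 with 24 in Dicer-CKO_MG against 56 in wild-type. miR-654-3p and miR-300, whose genes lie on either side of the pair Mir376b and Mir376a, were thus at background where miR-376a had 238 raw counts in Dicer-CKO_MG.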
